A study of Homo sapiens with 34 samples.

Results

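In 6 libraries of the human line COLO320 DM, chromatin carrying methylated lysine 9 of histone H3 (H3K9) was profiled after guide RNA directed perturbation of a site named ecSE4 (3 libraries) or after empty vector (3 libraries). The 6 libraries were chosen by their titles, out of 34 libraries in the series, 18 of them from COLO320 DM and 16 from PC3 DM. COLO320 DM is an established colorectal adenocarcinoma line that carries MYC on extrachromosomal DNA, small circles outside the chromosomes. For all 6 libraries, cells received 700 ng of plasmid by lipid transfection (lipofectamine 3000) and were taken 3 days later. The vector group thus shares the transfection, and whether its plasmid differs in the guide alone is not stated. Each library was made by CUT&Tag, in which a transposase tethered to an antibody cuts and tags the chromatin that the antibody binds, from 50000 nuclei. The antibody is described as anti-H3K9me, so the degree of methylation is not given. The labels give neither the genome position of ecSE4, nor the effector protein that acts with the guide, nor whether replicates came from separate cultures, so the spread between replicates may be technical.

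H3K9 methylation marks repressed chromatin: its trimethylated form binds HP1 proteins, and together they form heterochromatin over repeats, zinc finger gene clusters and silenced genes. Perturbation tools that bring a repressor domain to DNA with a guide RNA are widely used to place this mark at an enhancer or promoter. MYC encodes a transcription factor that drives growth, and it is flanked on chromosome 8 by 2 long non-coding RNA genes, CASC11 on the lower side and PVT1 on the upper side. Enhancers and RNA genes of this region are often amplified together with MYC.

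The values come from the authors' lists of called peaks (build hg38), 1 list per library. Each peak carries a fold over local background, a p-value and a q-value. From the fold and the p-value the whole number of fragments at the summit and the local background could be recovered, and peaks were ranked within their list by the −log10 q-value. The vector lists held 16471, 9385 and 24353 peaks and the ecSE4 lists 21350, 18247 and 25435. The means of 21677 ± 3605 for ecSE4 and 16736 ± 7487 for vector (SD, n = 3 each) differed by less than the spread between libraries (exact permutation test on log10 numbers, two-sided, p = 0.4; 3 against 3 allows no p below 0.1). The lowest local background of a list, 0.656, 0.629 and 0.764 fragments for vector and 0.782, 0.717 and 0.726 for ecSE4, served as a proxy of depth, because read totals are not in the lists. A summit divided by it is called a scaled summit below. Vector replicate 2 had the shortest list and vector replicate 3 the longest of its group, and both touch the counts given below. Genes picked from these same libraries, which therefore give no independent check of the line's labels, were as follows: POU5F1B, PDX1 and URAD had a peak in 3 of 3 lists of each group, while USP54, MDM4 and EIF2AK4, which had one in 14 to 16 of the 16 PC3 DM lists, had none in the 6. The prostate genes KLK3 and TMPRSS2 each had a peak in 1 ecSE4 list and in no vector list.

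With ecSE4, 3 of the 5 best-ranked H3K9me peaks of every list lay at MYC and its 2 neighbouring RNA genes, where vector lists held weak peaks or none. In each of the 3 ecSE4 lists the peak of rank 2 was in CASC11, rank 3 was in MYC and rank 5 was in PVT1. No vector list had any of these loci among its 5 best peaks. The vector lists were led by a region near LOC101929031 on chromosome 16 that was about as strong with ecSE4, and the best peak of 2 ecSE4 lists was at RNU6-1 on chromosome 15, the gene of the U6 small nuclear RNA.

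In CASC11, the peak spanned chromosome 8 positions 127725016 to 127728590 in ecSE4 replicate 1, 127725082 to 127728767 in replicate 2 and 127725672 to 127727815 in replicate 3. Its summit at position 127726057 or 127726058 held 3816, 3089 and 3023 fragments over local backgrounds of 774, 558 and 573. The authors' fold at this summit was 4.93, 5.53 and 5.27. The summits thus fell within 1 base pair of each other in the 3 libraries, on a raised background. In the 5 kb bin from 127725001 to 127730000, peaks covered 3575, 3686 and 2524 bp with ecSE4. Vector replicate 1 covered 210 bp of that bin, with a summit of 143 fragments, and vector replicates 2 and 3 had no peak in it. The groups did not overlap, as was so in the same direction for 16.7% of the 11973 bins tested. This bin was taken as the one in CASC11 with the largest difference in covered length towards ecSE4. Its 3 ecSE4 lists alone met the filter for testing. The order of the libraries and the p-value below are therefore no independent support. A second CASC11 peak, from 127724141 to 127724581, held 1231, 891 and 1043 fragments with ecSE4.

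The mean scaled summit of the CASC11 bin was 4450 ± 379 with ecSE4 (SD, n = 3). For vector a ceiling was estimated: the scaled summit of replicate 1, and for replicates 2 and 3 the counts that a peak would have needed over the background of their nearest peak, 70 and 76 fragments. The background in the bin itself is not in the lists, and a higher one would raise this ceiling. The ecSE4 mean was 31.1 times the mean of that ceiling. The covered length differed by 4.51 ± 0.61 on the log2(bp + 100) scale (SE), with an adjusted p of 0.0519 by limma with Benjamini-Hochberg adjustment over all bins, above the 0.05 threshold. This adjusted p was the smallest of the fit and was shared by 458 higher and 37 lower bins, so it does not set CASC11 apart from them.

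MYC itself, from 127735434 to 127742951 on hg38, held 3 peaks with their summit inside the gene in every ecSE4 list and 1 just above it. From low to high position, the first of these peaks started at 127738273 and held 2729, 1990 and 2295 fragments, and the next held 3163, 2536 and 2673. The highest, with its summit at 127742345, held 4655, 3883 and 3731 fragments over backgrounds of 1275, 957 and 967. The peak above the gene, from 127743087, held 2548, 2080 and 1875. In each ecSE4 library the summit at 127742345 held more fragments than the one in CASC11, on a higher local background, and so had the lower fold (3.65, 4.05 and 3.85). Among vector lists, replicate 3 had a summit of 78 fragments at 127738966 and one of 115 at 127743174, replicate 2 had one of 72 at 127743175, and replicate 1 had no peak in the same bins. Peaks covered 3403, 3332 and 3144 of the 7518 bp of MYC with ecSE4 and 0, 0 and 247 bp with vector.

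The upper MYC bin, from 127740001 to 127745000, had a mean scaled summit of 5502 ± 414 with ecSE4, 41.5 times the vector ceiling made as for CASC11. Covered length differed by 3.25 ± 0.63 log2 units in the lower MYC bin and by 3.66 ± 0.65 in the upper (limma, Benjamini-Hochberg adjusted p = 0.0519 for each). Vector had a peak in 1 list in the lower bin and in 2 in the upper, so the ecSE4 lists alone met the filter for testing. These p-values are therefore no independent support. With all gene bodies tested (2 kb added on each side), MYC differed by 3.95 ± 0.79 log2 units (adjusted p = 0.174, limma with Benjamini-Hochberg adjustment). The whole CASC11 body, which covers more bins than the one with the strong peak, differed by 0.61 (adjusted p = 0.740), and PVT1 by 0.73 (adjusted p = 0.721), by the same limma fit. In a bulk assay of an amplified locus, a mark on more copies, more mark per copy and more copies of the DNA cannot be told apart.

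**Figure D1:**
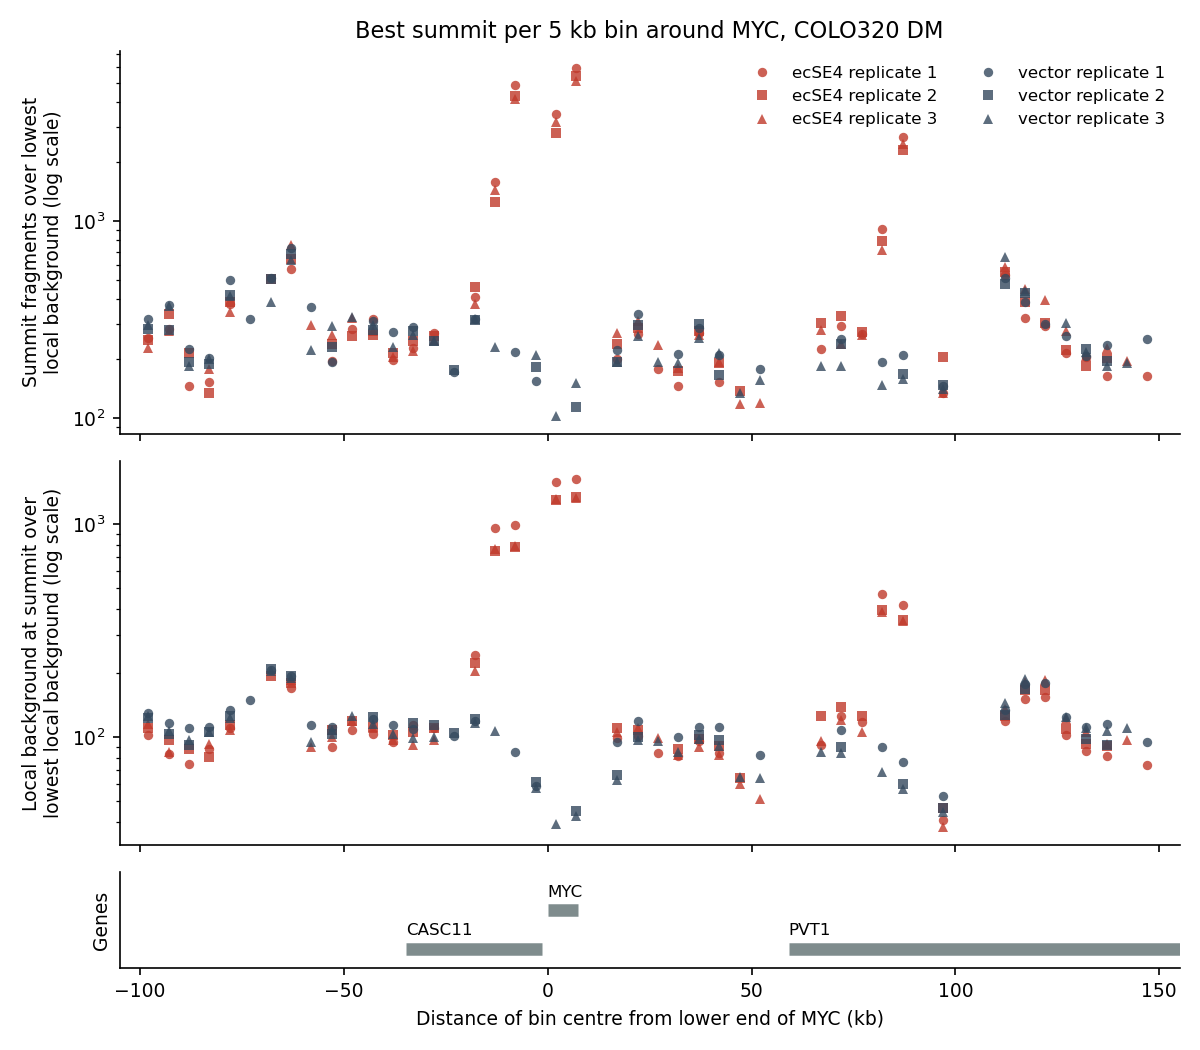
Best summit of each 5 kb bin (top) and its local background (middle), both over the lowest local background of the list on log axes, against the distance of the bin centre from the lower end of MYC in kb, with 1 point per library and gene positions below. The ecSE4 points stand above the vector points over the upper end of CASC11, MYC and a stretch of PVT1, and on both sides lie among them or a little below them.

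The local background traced how far the raised signal reached. In the bin from 127715001 it was 223 ± 19.0 scaled units with ecSE4 and 119 ± 3.00 with vector (1.88-fold). It was 825 against 106 in the bin from 127720001 and 852 against 84.6 in the bin from 127725001, each with 1 vector list to compare. In the upper MYC bin it was 1433 against 43.8, with 2 vector lists. By the bin from 127750001 the values were 105 ± 5.96 and 74.7 ± 17.5, and in the bin from 127755001 they were 106 ± 4.84 and 105 ± 11.6, a ratio of 1.01. In the bin from 127750001 every ecSE4 background was still above every vector one, 1.40-fold in the mean. The raised background around CASC11 and MYC therefore spanned bins from 127715001 up to this one, and a separate rise was seen in PVT1. It was 128 against 93.6 in the bin from 127805001 (1.36-fold), 417 against 78.8 from 127815001 (2 vector lists) and 374 ± 37.7 against 64.4 ± 10.0 from 127820001, then 41.7 against 47.8 from 127830001. In vector libraries the background dipped at MYC, to 43.8 in the upper bin from 119 in the bin from 127715001 and 105 in that from 127755001. The strongest ecSE4 signal thus lay over a stretch where vector had a low H3K9me background. The labels do not give the width over which the peak caller averaged it, and fragments of a strong peak can enter it.

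The PVT1 bin from 127820001, with its strong peak from 127821798 to 127824356 in ecSE4 replicate 1, had a peak in all 6 lists. The highest summits of the bin could therefore be compared directly, although they need not belong to the same peak. With ecSE4 it held 2074, 1646 and 1785 fragments, with an authors' fold of 6.34, 6.44 and 7.01. With vector the highest summit in the same bin held 138, 106 and 121 fragments and ranked 455, 813 and 1467. The lowest ecSE4 summit was far above the highest vector summit, with rank 5 against ranks of 455 and beyond. Mean scaled summits were 2469 ± 178 and 179 ± 27.5 (SD, n = 3 each), a 13.8-fold difference. Among PVT1 bins with a summit in all 6 lists, this one was taken for the largest such ratio. The folds and p-values given here are therefore no independent support. Unscaled counts gave 15.1-fold, scaling to the median of bins outside the MYC region gave 11.0-fold, and leaving out each library in turn gave 13.0-fold to 15.1-fold. Peaks covered 3095, 3107 and 2995 bp of the bin with ecSE4 and 287, 695 and 1108 bp with vector, a difference in covered length of 2.14 log2 units (limma, Benjamini-Hochberg adjusted p = 0.129; 0.0225 without vector replicate 3).

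A weaker PVT1 stretch, the bin from 127810001 to 127815000, had peaks in ecSE4 lists and in no vector list. Covered lengths were 743, 557 and 1045 bp, and the summits held 208, 195 and 192 fragments. The vector lists would have needed 111, 94 and 102 fragments to call a peak over the background of their nearest peak, and the ecSE4 scaled mean was 1.77 times that limit. The absence in vector is therefore an estimated upper limit near the ecSE4 value itself, unlike those at CASC11 and MYC. Between it and the strong peak, the bin from 127815001 had summits of 714, 567 and 515 fragments with ecSE4 and 126 and 113 in vector replicates 1 and 3, 4.73-fold on the scaled measure over those 2 vector lists. Its covered length differed by 1.20 log2 units (limma, Benjamini-Hochberg adjusted p = 0.656), and by 0.31 without vector replicate 2, which had no peak there.

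**Figure D2:**
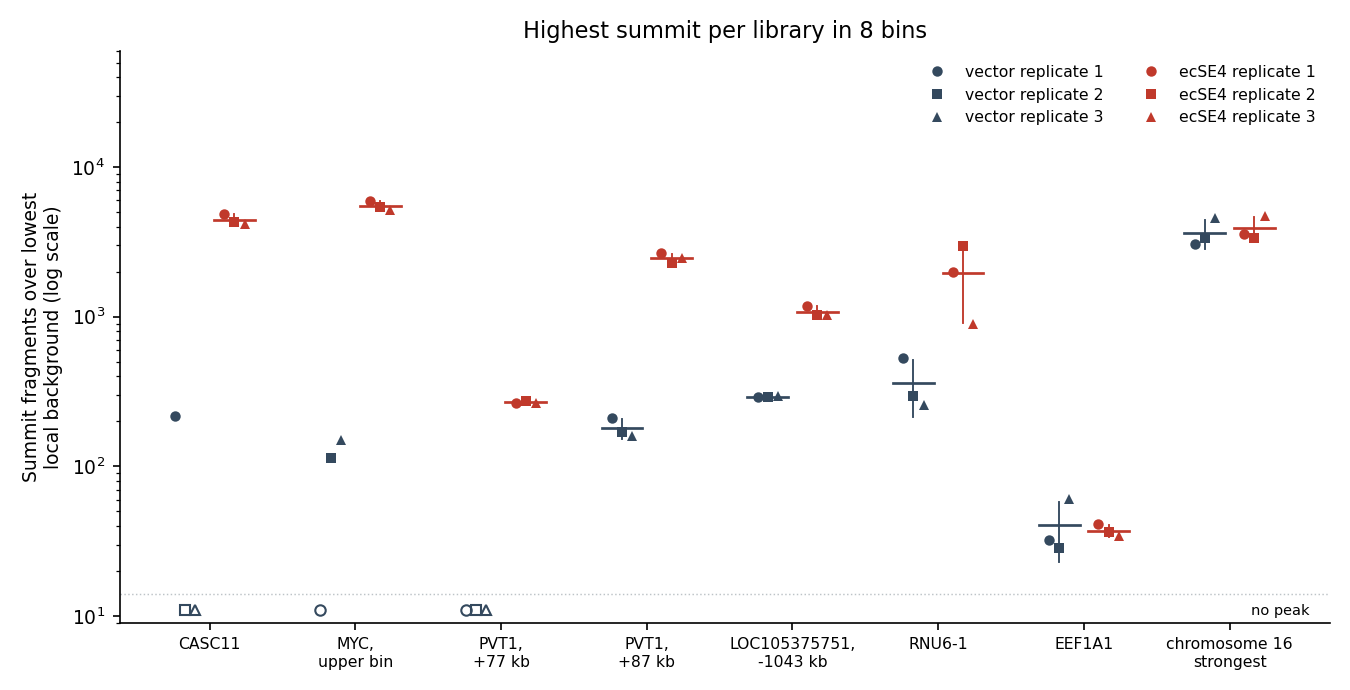
Scaled summit (log axis; summit fragments over the lowest local background) of each vector and ecSE4 library in 8 bins, with the mean as a horizontal line and the SD of 3 libraries as a vertical bar; open symbols at the bottom mark libraries with no peak. The groups are apart at CASC11, MYC, PVT1, LOC105375751 and RNU6-1 and overlap at EEF1A1 and at the strongest chromosome 16 bin.

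A distant site was higher on the same chromosome. In the bin from 126690001 to 126695000, inside LOC105375751, an uncharacterised RNA gene, the highest ecSE4 summits held 927, 740 and 744 fragments at ranks 17, 17 and 19. The vector summits in that bin held 190, 184 and 224 fragments at ranks 168, 229 and 391. Both groups had a peak in every list, and the summits were well apart. Mean scaled summits were 1081 ± 90.7 and 292 ± 1.97 (SD, n = 3 each), 3.70-fold, with 3.01-fold to 4.03-fold under the other scalings and 3.53-fold to 3.80-fold with each library left out in turn. As at PVT1, the bin was taken as the shared bin of its gene with the largest such ratio. These folds are therefore no independent support. Covered lengths of 1966, 2055 and 2055 bp against 1331, 605 and 1762 bp differed by 0.78 log2 units, with an adjusted p of 0.656 by limma with Benjamini-Hochberg adjustment. The bin just below, from 126685001, was 1.66-fold higher in scaled summit.

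Strong sites of the same region that were present in vector cells differed by far less. The bin from 126710001, also in LOC105375751, had summits of 2682, 1991 and 2703 fragments with ecSE4 and 1506, 1950 and 2627 with vector, a scaled ratio of 1.12. The bin from 127045001, near PCAT2, an RNA gene named for prostate cancer, had 1225, 971 and 1138 against 876, 1301 and 1439, a ratio of 0.849. In both bins the libraries of the groups overlapped. The bins from 126595001 and 126600001 share a strong peak and had ratios of 1.17 and 1.23, with every ecSE4 library (lowest 2580) above every vector library (highest 2563) in the scaled height of the best peak that reached them.

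Over all 1931 bins with a summit in all 6 lists, the scaled summit was higher in every ecSE4 than in every vector library in 387 bins (20%) and lower in 70 (3.63%). Within 2 Mb of the lower end of MYC (125735434 to 129735434), 7 of 176 such bins were higher and 48 lower, or 3.98% and 27.3%. Elsewhere 380 of 1755 were higher and 22 lower, or 21.7% and 1.25%. The median log2 ratio was -0.13 in the MYC region and 0.26 elsewhere. Where a peak was shared, the MYC region was thus lower relative to the rest of the genome, apart from a few bins. The median within the region was negative under each scaling, but its size depended on the scaling. Unscaled, the medians were -0.01 in the region and 0.37 elsewhere, with 10 bins of the region higher and 20 lower. Scaled to the median of bins outside the region, they were -0.43 and -0.04, with 3 higher and 107 lower. The gap between the region and the rest had the same sign under these 3 scalings. Over all 1931 bins the 3 scalings put the median at 0.23, 0.34 and -0.07.

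The 7 higher bins of the region were PVT1 at 3.79 log2 units, the LOC105375751 bin at 1.89, and 5 at 0.54 or less. These 5 were a LOC105375751 bin from 126680001 at 0.54, the CASC11 bin from 127715001 at 0.40, and bins from 126800001 at 0.31, 126590001 at 0.22 and 127375001 (CASC21 and CASC8, 2 RNA genes) at 0.10. CASC11 and MYC bins with the strongest ecSE4 peaks are absent from this comparison because vector lists lacked a summit there. In all 3 scalings only 3 of the 1931 bins passed 1.5 log2 units: PVT1, LOC105375751 and RNU6-1. The next bin, near LOC107984967 on chromosome 1, stood at 1.11.

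**Figure D3:**
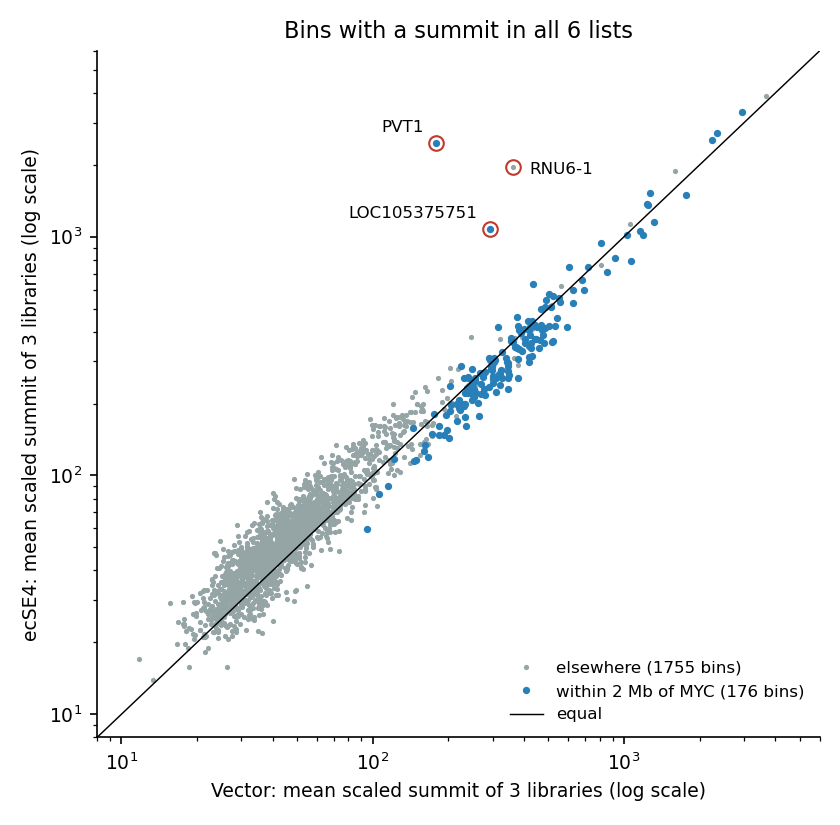
Mean scaled summit with ecSE4 against vector (log axes; fragments over the lowest local background) for the 1931 bins with a summit in all 6 lists, split into bins within 2 Mb of MYC and elsewhere. PVT1, RNU6-1 and LOC105375751 stand above the diagonal, and bins of the MYC region gather at high values close to it.

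**Figure D4:**
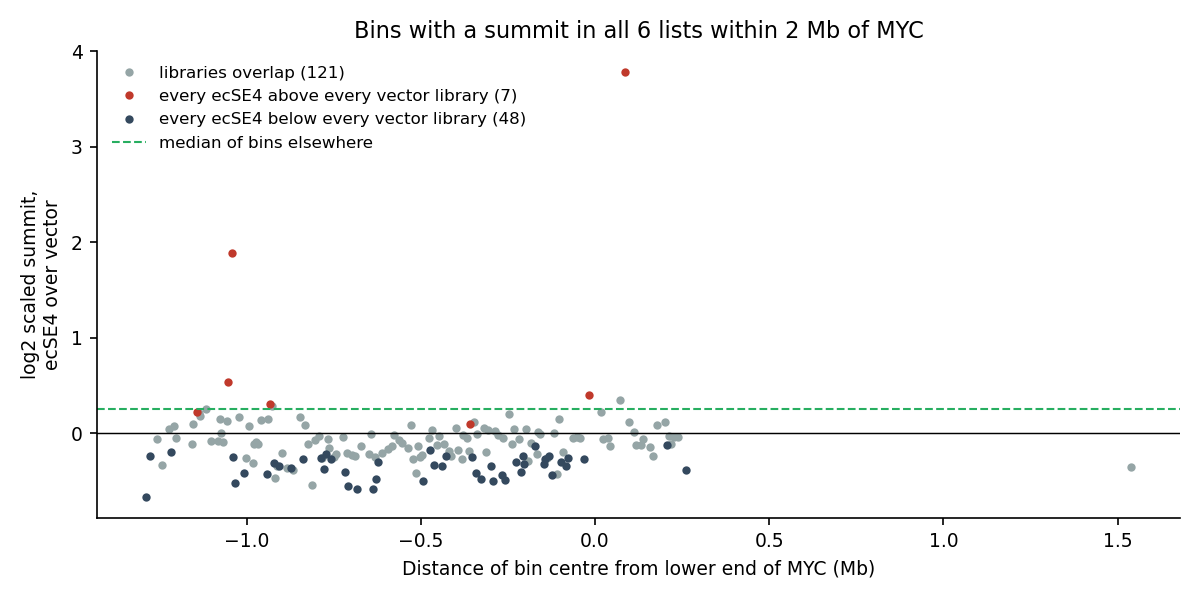
Log2 ratio of scaled summits, ecSE4 over vector, for the 176 shared bins within 2 Mb of MYC against the distance from its lower end in Mb; colours mark bins where every ecSE4 library lay above (7) or below (48) every vector library, and the dashed line is the median of 0.26 elsewhere. Most points lie a little below 0, and the PVT1 bin at 3.79 and the LOC105375751 bin at 1.89 stand out above.

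The region as a whole did not hold more peaks. It had 387 ± 21.0 peaks with ecSE4 and 423 ± 45.5 with vector (SD, n = 3 each; exact permutation test, two-sided, p = 0.3). Peaks covered 296 ± 15.1 kb of it with ecSE4 and 282 ± 42.0 kb with vector (exact permutation p = 0.6, two-sided). Without vector replicate 2 the difference in covered length turned from 13662 bp higher to -3496 bp. The region held 1.81 ± 0.251% of all ecSE4 peaks and 2.84 ± 1.05% of vector peaks (exact permutation p = 0.2, two-sided). None of these differences exceeded the spread between libraries.

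Of 68929 bins with a peak in any of the 6 lists, 642 (0.931%) had one in 3 of 3 ecSE4 and 0 of 3 vector lists, and 85 (0.123%) the reverse. In the MYC region 2 of its 389 bins were gained in this sense and 4 were lost. On the rest of chromosome 8 the counts were 32 and 3, the 3 lost bins lying in LOC100288097, 83062 bp from CSMD3, and in RSPO2, which encodes a WNT agonist. Presence alone gives no test here, since 3 against 3 cannot pass 0.05. The counts moved with single libraries: 1657 bins were present only with ecSE4 without vector replicate 3, and with each library left out in turn the 2 counts ran from 802 to 2272 and from 121 to 709. A limma fit of covered length called 0 of 11973 bins and 0 of 5413 genes in either direction at a Benjamini-Hochberg adjusted p of 0.05. The smallest adjusted p was 0.0519 for bins and 0.174 for genes (limma, Benjamini-Hochberg), and at an unadjusted p under 0.05 there were 1372 bins higher and 123 lower with ecSE4. Without vector replicate 3, the limma fit called 1524 bins as higher and 2 as lower. The median difference over all tested bins was 0.70 log2 units towards ecSE4, beside the longer ecSE4 lists, and 0.38 with every library scaled to the same total covered length.

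Of the 2 bins of the MYC region present only with ecSE4, the PVT1 bin is described above. The other, from 128655001, lay 90322 bp from LINC00824, a long non-coding RNA gene. Its peaks covered 346, 357 and 356 bp, with summits of 12, 17 and 11 fragments, 1.42 times what vector lists would have needed. It had a peak in 0 of the 12 other COLO320 DM lists. These peaks are weak beside those at MYC.

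The 4 bins present only with vector need the local background beside them. The one from 127730001, in CASC11 between its strong ecSE4 peak and MYC, was covered over 815, 539 and 1229 bp with vector (861 ± 347), with summits of 101, 115 and 160 fragments over backgrounds of 38.4, 38.8 and 44.2. In ecSE4 lists a stretch of 9682, 9505 and 10457 bp without a peak ran across this bin and the lower end of MYC, between peaks with backgrounds of 774, 558 and 573 below and 1235, 932 and 948 above. The background inside the bin is not in the lists, so that of the nearest ecSE4 peak, in CASC11 and 1411, 1234 and 2186 bp away, was borrowed. Over it a summit would have needed 900, 666 and 681 fragments, and the mean vector summit on the scaled measure was 0.181 of that need. If the borrowed background holds in the bin, a summit well above that of vector would have gone uncalled. The background there may be lower, which was not tested, and the missing peak alone is no measure of a lower signal. Covered length differed by -3.20 log2 units (limma, Benjamini-Hochberg adjusted p = 0.0519). It was lower in every ecSE4 than in every vector library, as in 1.34% of tested bins. That order was fixed in advance, because the bin was picked for having a peak only with vector, so neither value is independent support. No list of the 6 had a peak over the lower end of MYC itself.

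At the other 3 lost bins of the region the mean scaled vector summit was above the mean scaled count that ecSE4 lists would have needed for a call, but single libraries were not in all cases. The bin from 127325001 (CASC21 and CASC8) had vector summits of 257, 309 and 140 fragments, a mean of 1.62 times what ecSE4 lists would have needed, with replicate 3 at 0.834. The bin from 127030001, 8970 bp from LOC105375751, had 149, 146 and 224, 1.51 times the need. The bin from 127040001 had 189, 341 and 196, 1.02 times the need, with 2 of the 3 summits below it and 0.766 times without vector replicate 2. In the 3 ecSE4 libraries a peak lay 75, 75 and 24 bp outside this bin. At these 3 bins the differences in covered length were -2.23, -1.94 and -1.64 log2 units (limma, Benjamini-Hochberg adjusted p = 0.0785, 0.0621 and 0.295). They too were picked for having a peak only with vector, so these p-values are no independent support. Over the 4 bins of the region the median of this ratio was 1.26, and over the 81 lost bins elsewhere it was 1.96 (0.475 to 5.42). Of those 81, 1 was below 1 and 19 were within 1.5. The need was taken over the background of the nearest ecSE4 peak. Where none lay within 10 kb, the lowest local background of the list was used. That gives the lowest possible need, so ratios of such bins are upper limits.

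**Figure D5:**
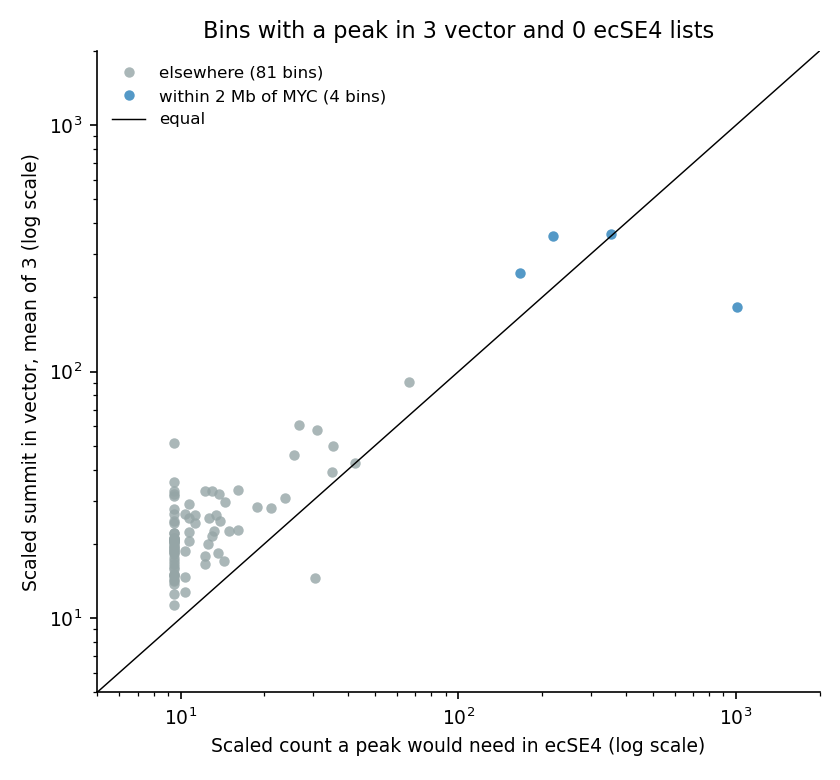
Mean scaled summit in vector against the scaled count that a peak would have needed in ecSE4 lists (log axes), for the 81 bins elsewhere and the 4 within 2 Mb of MYC that had a peak only with vector; the line marks equal values. The CASC11 bin, with a ratio of 0.181, lies far below the line, 1 bin elsewhere lies clearly below it (0.475), and the others lie on or above it. Where no ecSE4 peak lay within 10 kb, the needed count rests on the lowest local background of the list, so the ratio is an upper limit.

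Away from the MYC region, peaks present only with ecSE4 were weak and scattered. Over the whole genome the 642 bins joined into 627 stretches, 625 of them outside the MYC region, with 14 over more than 1 bin and 299 in no gene, with a median summit of 18.3 fragments. The one with the most covered length was on chromosome 4 from 400001 to 415000 near ZNF519P4, a zinc finger pseudogene, covered over 1317, 1478 and 1493 bp. Others were a stretch near SUMO3, which encodes a ubiquitin-like modifier, on chromosome 21 (1082 ± 220 bp) and one at HEATR5A on chromosome 14 (923 ± 71.3 bp). The HEATR5A stretch held the best rank of any gained peak, 124 in ecSE4 replicate 1, with 69 fragments. Neither ZNF519P4 nor HEATR5A was particular to ecSE4 in the lists: 10 and 12 of the 12 other COLO320 DM lists had a peak there. The other 7 of the 10 with the most covered length lay at or near LOC107985161, CIBAR1-DT, LOC107987039, LOC101927947, PLLPP1, CLEC4M and CACYBPP2, with means from 830 to 1116 bp. Of the 642 bins, 20.4% to 61.2% had a peak in each of the 12 other lists, where 11.9% to 42.8% of all bins did.

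Over the whole genome, peaks present only with vector formed 84 stretches, 36 of them in no gene. Away from the MYC region, the one with the most covered length was on chromosome 5, 31515 bp from LOC105379027 (799 ± 286 bp), where vector summits were 5.42 times the need, the highest of the 81. The nearest ecSE4 peaks lay 16902, 49471 and 16902 bp away, so this need of 7 fragments rests on the lowest local background of each list. Vector backgrounds at this site were 3.84, 4.43 and 6.35, and the ratio is an upper limit. LOC100288097 on chromosome 8 followed with 739 ± 461 bp and a ratio of 2.33. Genes among the rest were DDX60, an antiviral helicase (571 ± 365 bp), ANKS1B (560 ± 125 bp) and the zinc finger genes ZNF586 (558 ± 80.2 bp) and ZNF561 (483 ± 178 bp). KRABD5, named for its KRAB domain, had 475 ± 127 bp, but ecSE4 peaks lay 57, 58 and 77 bp outside its bin and the ratio was 1.36. Of the 85 bins, this one and the bin from 127040001 had an ecSE4 peak within 100 bp in all 3 libraries. The other 3, LOC105370418, LOC105373769 and LOC124902439, had 600 ± 196, 580 ± 336 and 549 ± 438 bp. Of the 85 bins, 20% to 65.9% had a peak in each of the other COLO320 DM lists, where 11.9% to 42.8% of all bins did. Those at ANKS1B and near LOC105379027 had a peak in 11 and 10 of these lists, and those at DDX60 and ZNF561 in 4 and 3.

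At RNU6-1 (chromosome 15, 67839939 to 67840045), a peak from 67840040 to 67840296 was called in all 6 lists. It held 1553, 2129 and 651 fragments with ecSE4, at ranks 1, 1 and 6, and 349, 186 and 196 with vector, at ranks 4, 17 and 21. The groups did not overlap, but ecSE4 replicate 3 lay far below the other 2. Scaled summits were 1951 ± 1038 and 361 ± 149 (SD, n = 3 each), 5.40-fold, with 4.35-fold to 5.93-fold under the other scalings and 3.99-fold to 7.07-fold with each library left out in turn. The authors' fold differed little, at 34.8, 35.1 and 35.9 against 37.3, 33.2 and 30.5, and so did the covered length of 257, 253 and 262 bp against 248, 256 and 251 bp (0.02 log2 units; adjusted p = 0.983, limma with Benjamini-Hochberg adjustment). The labels do not name the promoter that drives the guide on the transfected plasmid, and whether plasmid DNA adds to this peak was not tested.

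Regions strong in both groups gave a measure of stability. The leading vector region, chromosome 16 from 33545442 to 33547291 in ecSE4 replicate 1, near LOC101929031, had summits of 2792, 2422 and 3433 fragments with ecSE4 and 2000, 2108 and 3479 with vector. It ranked 1 in every vector list and 4, 4 and 1 with ecSE4, with a scaled ratio of 1.07. The bin from 32340001 on chromosome 16 had a ratio of 1.18. Both ratios lie within the spread between libraries, against 13.8 at PVT1, in a bin picked for its ratio.

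Annotated start sites carried few peaks in either group. Of 34961 promoter windows of 300 bases from RefSeq (build GRCh38.p14, 250 bases before to 50 after the start, 27195 genes), the ecSE4 lists reached 75, 71 and 120 and the vector lists 54, 24 and 80. None was present only with ecSE4 in all 3 lists, and none only with vector. Peaks reached 6 windows, of 5 genes, in all 6 lists. Of these, 4 are shown because they hold bases that were under a peak in every library of both groups, while the 2 windows of KLRC1 had 0 such bases; the 250 bases before the start are given 5′ to 3′ on the gene's strand, with those bases in capitals.

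LOC107986171, chr3:191155903-191156152, plus strand: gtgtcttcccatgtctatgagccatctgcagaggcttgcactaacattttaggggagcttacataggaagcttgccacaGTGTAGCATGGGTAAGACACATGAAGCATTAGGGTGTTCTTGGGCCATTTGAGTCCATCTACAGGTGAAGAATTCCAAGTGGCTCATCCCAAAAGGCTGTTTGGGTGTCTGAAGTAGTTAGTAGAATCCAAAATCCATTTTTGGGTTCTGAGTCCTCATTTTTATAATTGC

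EEF1A1, chr6:73521033-73521282, minus strand: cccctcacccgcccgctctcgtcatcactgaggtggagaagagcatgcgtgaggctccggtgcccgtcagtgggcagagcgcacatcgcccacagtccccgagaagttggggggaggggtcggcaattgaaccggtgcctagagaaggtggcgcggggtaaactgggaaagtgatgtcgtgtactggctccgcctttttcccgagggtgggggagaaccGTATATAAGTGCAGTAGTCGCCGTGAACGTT

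LOC101929031, chr16:33571681-33571930, minus strand: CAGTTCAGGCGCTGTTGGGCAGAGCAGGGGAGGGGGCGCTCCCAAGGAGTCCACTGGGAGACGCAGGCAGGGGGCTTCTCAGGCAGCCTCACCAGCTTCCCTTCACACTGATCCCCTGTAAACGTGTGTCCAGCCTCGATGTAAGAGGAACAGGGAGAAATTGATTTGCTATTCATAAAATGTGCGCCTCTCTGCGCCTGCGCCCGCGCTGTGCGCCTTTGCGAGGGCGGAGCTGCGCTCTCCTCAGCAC

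ZNF473-AS1, chr19:50044690-50044939, minus strand: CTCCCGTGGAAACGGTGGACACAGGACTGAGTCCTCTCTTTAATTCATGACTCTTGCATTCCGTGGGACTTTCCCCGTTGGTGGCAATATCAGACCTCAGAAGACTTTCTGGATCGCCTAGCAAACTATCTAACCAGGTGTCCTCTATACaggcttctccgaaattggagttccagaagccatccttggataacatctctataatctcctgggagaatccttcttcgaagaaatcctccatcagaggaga

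EEF1A1 encodes a translation elongation factor that every cell uses. The capitals are its last 31 bases before the start, and the summit of its bin held 32, 26 and 25 fragments with ecSE4 and 21, 18 and 46 with vector, a scaled ratio of 0.924. As at RNU6-1, whether plasmid DNA adds to the EEF1A1 peak was not tested. All 250 bases shown for LOC101929031 were covered, 171 bases of LOC107986171, and 150 of ZNF473-AS1, which is antisense to a zinc finger gene.

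No gene list had a called member in the limma fit, and each list is given by how many genes had a peak. The share of all genes with a peak in each library is not given, so these counts cannot be set against it. Imprinted genes, which are expressed from 1 parental copy and carry repressive marks on the other, had a peak at 6, 9 and 8 of 21 genes with ecSE4 and at 1, 2 and 4 with vector. That is 36.5 ± 7.27% against 11.1 ± 7.27% (SD, n = 3 each). The ecSE4 peak lists were longer in the mean, so this contrast is not read as a trait of imprinted genes. Of 6 that could be tested, 4 were higher in every ecSE4 list, as were 14.7% of all tested genes, and the median difference was 2.34 log2 units beside 0.71 over all genes. These 4 were GRB10, UBE3A and the overlapping KCNQ1 and KCNQ1OT1. GRB10 and UBE3A reached the 3 lists needed for the test only through ecSE4, which fixed their direction. Neither the count nor the median is therefore support for a difference. GRB10, a growth factor receptor adaptor, was covered over 1052, 834 and 304 bp with ecSE4 and 0 bp in each vector list (2.92 log2 units; adjusted p = 0.174, limma with Benjamini-Hochberg adjustment). UBE3A, a ubiquitin ligase, was covered over 297, 263 and 370 bp with ecSE4 and 0 bp with vector (2.03 log2 units; limma, Benjamini-Hochberg adjusted p = 0.194). KCNQ1OT1, the antisense RNA that silences its imprinted neighbours, had 2835, 2381 and 3392 bp against 0, 550 and 1496 bp (2.65 log2 units; limma, Benjamini-Hochberg adjusted p = 0.465), and the difference was 1.53 without vector replicate 1 and 3.53 without vector replicate 3. It overlaps KCNQ1, so their peaks are shared in part. The vector lists in which these genes lacked peaks include the shortest, and its part in the counts was not tested.

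Genes of the MYC locus had a peak at 14 of 23 in each ecSE4 list and at 12, 12 and 13 with vector. Of 13 tested, 4 were higher and 1 lower in every ecSE4 list (14.7% and 1.07% of all tested genes), with a median of -0.02 log2 units. Zinc finger genes of chromosome 19, a class that often lies in H3K9 methylated clusters, had a peak at 139, 132 and 151 of 241 with ecSE4 and 124, 102 and 143 with vector. Of 149 tested, 20 were higher and 4 lower, with a median of 0.71, the same as over all genes. The co-amplified 13q12 genes had a peak at 4, 4 and 6 of 9 against 6, 4 and 5. The WNT pathway genes had 2, 1 and 2 of 10 against 3, 2 and 5, and those of the H3K9 methylation machinery 4, 3 and 3 of 14 against 4, 2 and 4. Lists of intestinal, neuroendocrine and MYC network genes had at most 2 genes with a peak in any list, and housekeeping genes had none.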

How the data were processed

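H3K9me CUT&Tag peaks of 6 COLO320 DM libraries (3 ecSE4, 3 vector) were compared. The authors deposited 1 peak list per library on hg38, called separately. Each peak has, in the deposited file, a score, a fold over local background (a ratio), and −log10 p and −log10 q values. The submitters' processing notes name Trim Galore 0.6.6, Bowtie2 2.3.5, MACS2 2.2.7.1, SAMtools and bedtools. The lowest −log10 q was just above 3. The authors' peak values were not tested: they served to rank and filter peaks and to recover the fragments on which scaled summits, folds between groups and needed counts rest.

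Summit fragments and local background were solved from fold and p for whole counts (tolerance 0.0005 in −log10 p; at least 99.92% of peaks in each of the 6 lists). Covered bp per 5 kb bin, and per gene with 2 kb on each side, was tested as log2(bp + 100) with limma 3.58.1 (R 4.3.3) where at least 3 of 6 libraries had a peak, with Benjamini-Hochberg adjustment, two-sided, threshold 0.05, after a test on simulated data. A fold on this scale understates low values. Summaries of 3 against 3 libraries had an exact permutation test. Depth is unknown, so no counting interval is given.

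Genes were named by a rule: MYC, CASC11, PVT1 and LOC105375751, the 5 best peaks of each list, and, since limma called none, all bins of the MYC region and the 10 stretches elsewhere with the most covered bp present in 1 group only; other features were chosen after their values were seen. Names come from RefSeq. The members and lists were chosen with earlier results of these data known. The alternatives were other pseudocounts, bin and window sizes, filters, lists of equal length, stricter q, larger overlap, a replicate block and leaving out each library; 2 further scalings of summits and their values with each library left out were added after seeing the data. Some marker genes of the list for other cells are not reported here.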

Additional observations from a re-analysis of the deposited data

Results flagged for a closer look

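The bins described for ecSE4 were also read in the other COLO320 DM perturbations, which the comparison does not use. Bins are listed where all 3 libraries of a group lay above every vector library, by at least 1.5-fold in the mean where all vector lists had a peak. These comparisons share the 3 vector libraries, and none was tested.

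With the ecSEcombo perturbation, whose content the labels do not state, the CASC11 bin from 127725001 held summits of 824, 1270 and 1089 fragments, a mean scaled summit of 1612. The lower MYC bin had a mean of 1301 and the upper one 2309, with 1071, 1780 and 1748 fragments in the latter. PVT1 from 127820001 held 279, 564 and 540 fragments, 3.82-fold above vector. LOC105375751 from 126690001 held 304, 580 and 467, which was 2.31-fold. The PVT1 bin from 127815001 had a mean of 272, and that from 127810001 had 350. Each of these ecSEcombo values except the last lay between vector and ecSE4.

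With the ecSE3 perturbation, the PVT1 bin from 127810001 held 695, 586 and 479 fragments, a mean scaled summit of 749, against 267 with ecSE4 and no vector peak. The MYC bins had means of 182 and 187, the PVT1 bin from 127815001 had 287, and PVT1 from 127820001 was 1.60-fold above vector. These PVT1 bins had the same best summits of 242, 223 and 204 fragments, since a peak that reaches both counts in each. They are therefore not separate observations. So ecSE3 was higher than ecSE4 in the lower PVT1 bin and far lower at MYC.

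RNU6-1 was above vector with ecSE2 (4.76-fold), ecSE3 (3.04-fold) and ecSEcombo (10.9-fold), beside 5.40-fold with ecSE4. With ecSE1 it was 5.42-fold, but 1 of the 3 libraries lay within the vector range. With ecSEcombo its summits held 2456, 3087 and 2049 fragments. Whether plasmid DNA adds to it was not tested.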

How the results depend on the processing

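Calls by limma depended on the settings. Bins called as gained, 0 as analysed, numbered 603 with a pseudocount of 20 bp, 198 with lists of equal length and 486 at a −log10 q of at least 5. Bins called as lost, also 0, numbered 83, 53 and 39. Leaving out each library in turn gave 0 to 1524 gained and 0 to 2 lost, and the values of 1524 and 2 came without vector replicate 3. Genes numbered 156 gained and 34 lost with the pseudocount of 20 bp and 0 under the other settings tried. CASC11 passed with the 20 bp pseudocount (adjusted p = 0.0322), equal lists (0.0445), the stricter q (0.0407) and without vector replicate 3 (0.0206), all by limma with Benjamini-Hochberg adjustment. This CASC11 bin was picked for its difference, so these values are no independent support. Bins present only with ecSE4 (642) numbered 259 in equal lists and 334 with an overlap of 500 bp, and 802 to 2272 with a library left out. Those only with vector (85) numbered 56 at the stricter q, 11 with the larger overlap, and 121 to 709. Covered length near MYC differed by -3496 to 37061 bp with a library left out, the former without vector replicate 2. Of the results answering a comparison, 77 values under alternatives were classed as unchanged, 23 as moved and 1 as reversed. For counts of bins and genes, unchanged means near the same size. For peaks per list, and for peak number and covered length near MYC, it means the same sign only, whatever the size. The cause of these shifts was not tested.

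Same-numbered libraries of the groups share only a number: their deviations correlated at -0.0054, 0.0215 and 0.0326, and replicate 1 did not correlate best with its own number. A replicate block gave 0 gained and 0 lost bins and genes. Depth is known only by the proxy: near 128655001 a vector peak needed 8 or 9 fragments, and weaker signal there could not be seen.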
